A study of Rana omeimontis with 6 samples.

Results

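The features described here are the transcripts of tadpole liver whose best protein match is named for antigen presentation or for lymphocytes. They were found in the description column of the FPKM matrix (fragments scaled for transcript length and sequencing depth), by whether the name of the first protein listed held any of 10 phrases, among them MHC class, histocompatibility, immunoglobulin, T-cell, B-cell and leukocyte. Of 121726 transcript clusters, called features below, 256 matched, and 68 of these reached 1 FPKM in at least 3 of the 6 libraries. The 68 are part of 40548 features that passed the same filter and were tested together, and they carried 48 distinct protein names. None of the 68 passed the filter through 1 stage alone. By role they fell into 10 MHC class I heavy chains, 7 MHC class II and invariant chain features, beta-2-microglobulin with the peptide transporter subunit TAP2, 9 immunoglobulin or J chain features, 3 T-cell and 2 B-cell receptor proteins, 6 leukocyte-named proteins, 7 proteins of the wider immunoglobulin superfamily or binding to immunoglobulin, and 22 other proteins.

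Liver of wild-collected Rana omeimontis tadpoles was sequenced in 6 libraries, 3 from the stage before and 3 from the stage after the tadpoles build up fat, which the study title ties to somatic growth and lipid-based energy metabolism. No genotype, treatment or age was given, and nothing in the labels says whether the 3 libraries of a stage came from separate animals or pools, so p-values measure only the spread between these libraries, which may be technical. Each difference given below is the after mean less the before mean of log2(FPKM + 1), tested with limma and adjusted by Benjamini-Hochberg over the 40548 features, with a threshold of 0.05.

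MHC class I molecules carry peptides from inside the cell to the cell surface, where T cells read them. A heavy chain pairs with beta-2-microglobulin, and the TAP transporter brings the peptides into the endoplasmic reticulum. MHC class II molecules pair an alpha with a beta chain, are guided by the invariant chain, and present peptides cut in the endosomes of macrophages, dendritic cells and B cells. In Xenopus tadpoles, classical class I protein is scarce before metamorphosis, whereas class II is already found on some immune cells. The liver holds macrophages and, in amphibians, takes part in blood cell formation.

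The libraries were alike in summed FPKM, from 1358665 to 1442121. The most common ratio of a low FPKM value to its value in after replicate 1 was 1.03 to 1.05, an indirect reading of relative depth. Before replicate 3 listed the most features at 1 FPKM or more, 49148, against 37208 to 42276 in the other 5. Hepatocyte markers summed to 11131 to 12063 FPKM after and 6642 to 7239 before. Markers of exocrine pancreas, an organ next to the liver, summed to 202582 to 306428 FPKM before and 260969 to 356031 after, so transcripts known from another organ took up much of the summed FPKM, and their part in the results below was not tested. Across all features tested the median difference was -0.08, and 54.2% of features had a negative difference.

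Between the stages 2 of the 68 features rose and 3 fell, a share near that of all features tested, of which 4.64% rose and 4.0% fell (8.64% either way). None of the antigen presentation and antigen receptor proteins themselves passed the threshold. The 3 that fell were TCIRG1, NFATC3 and NFKBIA, and the 2 that rose were BCAP31 and BCL7B. All 5 owe their place to a name that includes T-cell or B-cell, while the proteins act in many cell types. With 1 library left out 0 to 1 features rose and 1 to 3 fell, with 1 falling without after replicate 2, after replicate 3 or before replicate 1. Of the 33 MHC, beta-2-microglobulin, TAP2, immunoglobulin, T-cell and B-cell receptor features, 0 passed in limma, 7 had an unadjusted p under 0.05, and the lowest adjusted p was 0.0700. Over all features tested, 26.6% had an unadjusted p under 0.05, so the 7 of 33 are no more than the background gives. The stages did not overlap for 4 of the 68 features with higher values after and for 15 with lower values after, against 15.7% and 16.8% of all features tested (32.5% either way). The median difference of the 68 was -0.16, with 46 negative and 22 positive, and leaving out before replicate 3 moved it to 0.019.

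**Figure D1:**
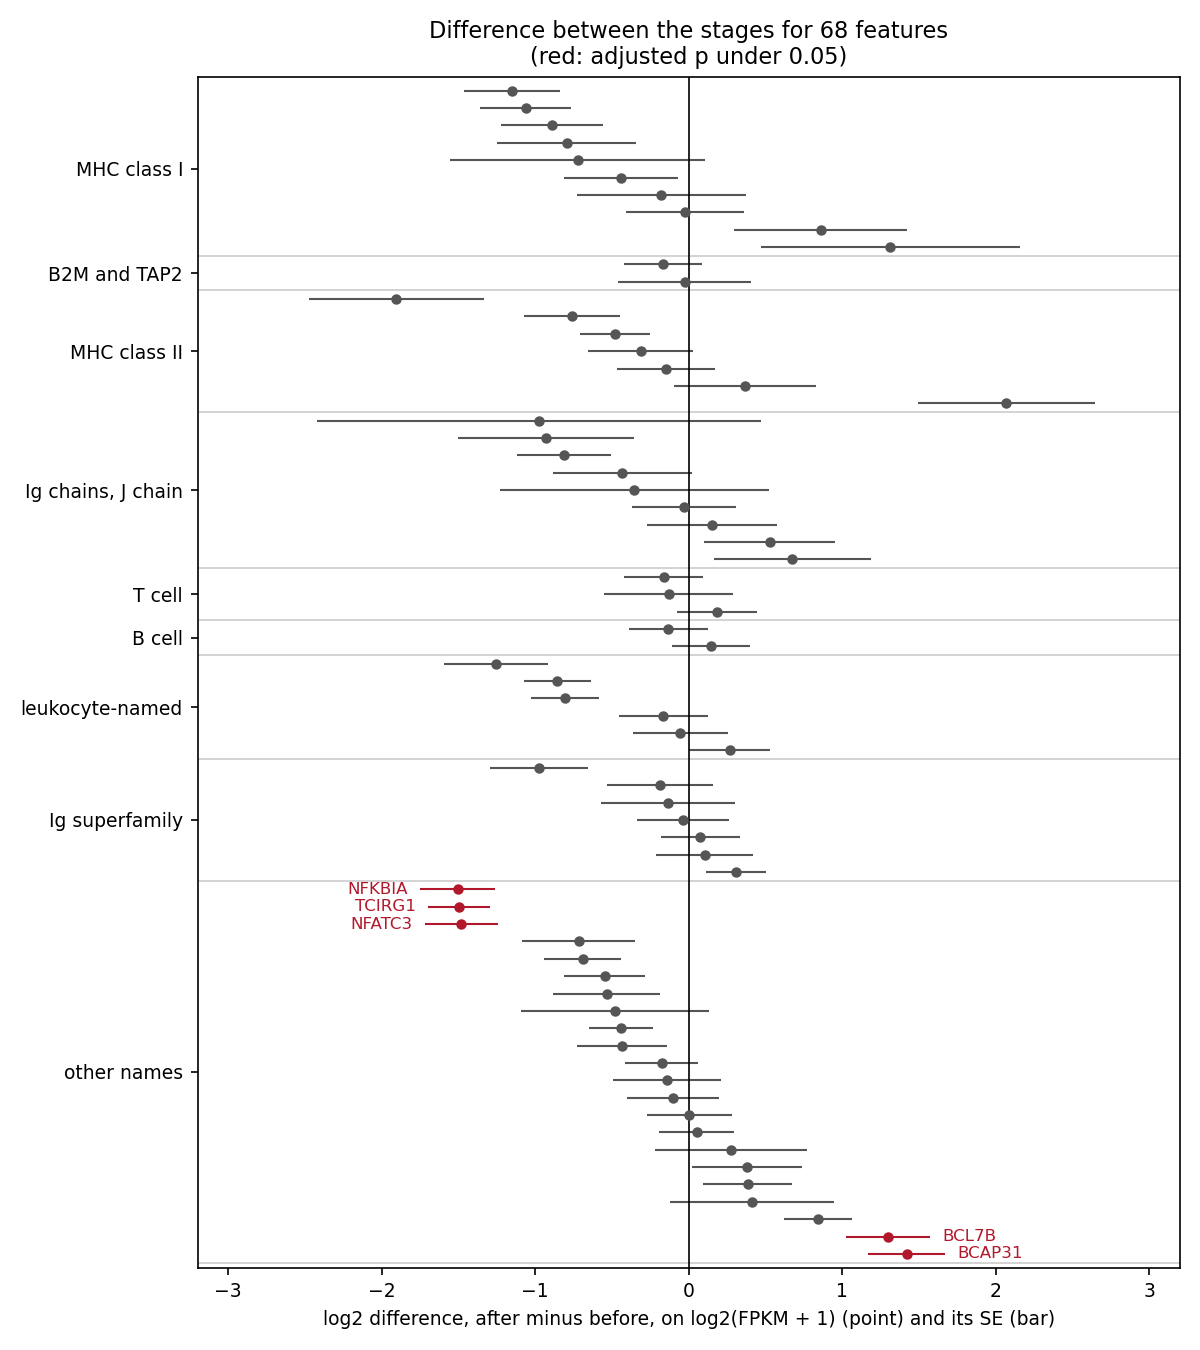
The horizontal axis gives the log2 difference, after minus before, of each of the 68 features (point) with its standard error (bar), grouped by role on the vertical axis. The 5 features in red passed an adjusted p of 0.05, and all of them sit in the group of other names, at -1.50, -1.50, -1.48, 1.30 and 1.42.

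Beta-2-microglobulin, the light chain of every class I molecule, was the most abundant of the 68 features. It measured 485, 763 and 583.5 FPKM in the after libraries and 513, 678 and 882 FPKM in the before libraries. The stages overlapped, with the lowest value in after replicate 1 and the highest in before replicate 3, and the difference was -0.17 ± 0.25 (SE, n = 3 against 3, limma adjusted p = 0.723, 95% interval -0.77 to 0.44). Its mean level stood at the 99.5th percentile of all features tested. TAP2, which forms the peptide transporter with TAP1 and is named beside beta-2-microglobulin after its values were seen, was far lower, at 0.83, 3.79 and 1.16 FPKM after and 0.99, 2.32 and 2.02 FPKM before. The TAP2 difference was -0.03 (adjusted p = 0.979), with a wide 95% interval of -1.06 to 1.01. Its highest value came from after replicate 2, and the stages overlapped. Both TAP1-like features stayed below the filter and reached at most 2.31 FPKM.

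The 10 class I heavy chain features had a negative log2 difference in 8 cases, and none passed. Their summed FPKM was 52.6, 146 and 102 after and 76.9, 121 and 168 before, or 100 ± 46.9 and 122 ± 45.4 (SD, n = 3 each). The sums overlapped widely, and after replicate 1 was the lowest library of the 6. The median difference over the 10 was -0.58, against -0.08 over all features tested. Their protein matches all came from frogs of the genus Rana or the toad Rhinella marina. Because class I genes are many and alike, reads of 1 gene can be split over several clusters or alleles, and the level of a single cluster is uncertain.

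The most abundant heavy chain feature (Cluster-8914.40565) followed the class as a whole. It stood at 15.6, 60.9 and 42.3 FPKM after and at 23.3, 42.8 and 59.5 FPKM before, and its difference was -0.18 ± 0.55 (adjusted p = 0.869). The ranges overlapped almost fully, since after replicate 2 and before replicate 3 were both near 60. The remaining heavy chains named here were picked after their values were seen. A class Ia alpha chain (Cluster-8914.21750) measured 2.57, 1.74 and 2.51 FPKM after and 3.94, 6.87 and 8.64 FPKM before. Every before library was higher than every after library, with a difference of -1.15 ± 0.31, and its adjusted p of 0.0700 missed the threshold. Another heavy chain (Cluster-8914.5381) likewise did not overlap, at 2.61, 4.21 and 1.96 FPKM after and 7.95, 7.84 and 5.39 FPKM before (-1.06, adjusted p = 0.0747).

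Of 3 clusters with the same toad protein match, a pair differed in opposite directions in 1 library. Whether they share reads was not tested. One (Cluster-8914.40557) measured 44.7 FPKM in before replicate 3 and 3.40 to 9.51 FPKM in the other 5 libraries. The other (Cluster-8914.40558) measured 0.68 FPKM in before replicate 3 and 6.80 to 24.4 FPKM in the rest. The pair summed to 10.2, 32.1 and 26.4 FPKM after and 16.0, 16.9 and 45.4 FPKM before. In before replicate 3 the first cluster was high and the second low, the reverse of the order in the remaining 5, and the stages overlapped in the sum. The third cluster with this match (Cluster-8914.37728) is not in that sum. It measured 9.52 to 22.6 FPKM after and 9.75 to 20.5 FPKM before.

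**Figure D2:**
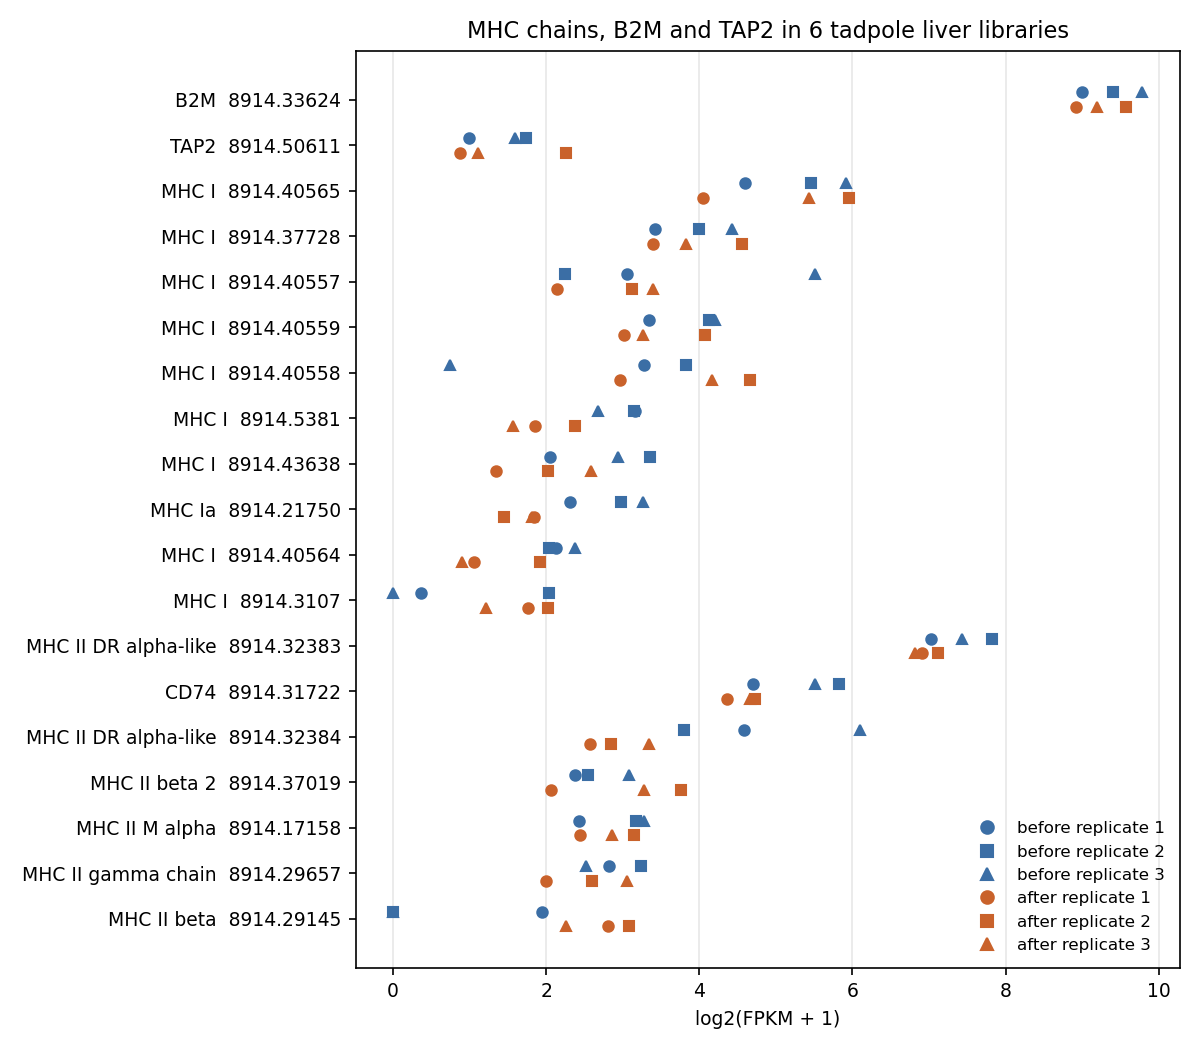
Each row is 1 feature, named with its cluster number, and the horizontal axis gives its log2(FPKM + 1) in each of 3 before libraries (blue) and 3 after libraries (orange), with a marker shape per replicate. Before and after points interleave in most rows, for beta-2-microglobulin between 485 and 882 FPKM. They separate in 5 of the 19, where 32.5% of all features tested separate in either direction.

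Class II chains were the more abundant MHC class, and 0 of 7 features passed. The class summed to 161, 203 and 171 FPKM after and to 195, 315 and 304 FPKM before, or 178 ± 21.8 and 272 ± 66.6 (SD, n = 3 each). Before replicate 1 lay within the range of the after libraries, and the other 2 before libraries lay above it. The median difference was -0.31, and 5 of the 7 were negative. A DR alpha chain-like feature (Cluster-8914.32383) carried most of that sum, with 119, 138 and 112 FPKM after and 129, 226 and 172 FPKM before. Here too before replicate 1 lay among the after values, and the difference was -0.48 ± 0.23 (adjusted p = 0.244, 95% interval -1.03 to 0.07). A second feature with that protein name (Cluster-8914.32384) measured 4.96, 6.21 and 9.12 FPKM after and 22.9, 12.9 and 67.4 FPKM before. Its stages did not overlap, the before libraries spread over a wide range, and the difference of -1.90 ± 0.57 missed the threshold (adjusted p = 0.0896). Summed, the pair gave 124, 144 and 121 FPKM after and 152, 238 and 239 FPKM before, without overlap.

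CD74, the invariant chain that escorts class II molecules to the endosome, measured 19.6, 25.5 and 24.2 FPKM after and 25.1, 55.6 and 44.5 FPKM before. Before replicate 1 was within the after range, and the difference was -0.76 ± 0.31 (adjusted p = 0.179). A second, lower invariant chain feature (Cluster-8914.29657), named after its values were seen, overlapped, with a difference of -0.31 (adjusted p = 0.616). A beta chain (Cluster-8914.29145), named after its values were seen, had a difference of the opposite sign. It stood at 6.03, 7.50 and 3.77 FPKM after, at 2.86 FPKM in before replicate 1, and was listed at 0 in before replicates 2 and 3. The stages did not overlap and the difference was 2.07 ± 0.58 (adjusted p = 0.0741). Without before replicate 1, its only before library above 0, this beta chain passed (adjusted p = 0.0350), so that pass rests on before values of 0 alone. A second beta chain, also named after its values were seen, had a difference of 0.37 (adjusted p = 0.664) with overlapping stages. Beta chain matches below the filter included one to Bufo bufo at 6.03 FPKM in before replicate 1 and at most 1.0 in each of the others. In bulk RNA, a difference in the number of class II-bearing cells and a difference in RNA per cell cannot be told apart.

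The order of the libraries within a stage recurred over the 19 MHC, beta-2-microglobulin and TAP2 features. After replicate 1 was the lowest of its stage in 13 and after replicate 2 the highest in 14, shares that were 32.8% and 36.6% over all features tested. Before replicate 1 was the lowest before library in 11 of them, against 28.9% of all features. The same features share libraries and in part sequence, so these counts are descriptions. Genes that interferon switches on or that drive class I expression in mammals were set beside them. PSMB9, an immunoproteasome subunit, measured 54.5, 71.3 and 61.3 FPKM after and 53.8, 101 and 81.0 FPKM before (-0.29, adjusted p = 0.533). IRF1, an interferon-induced transcription factor, measured 14.9, 27.7 and 9.94 FPKM after and 12.9, 16.5 and 18.0 FPKM before (0.04, adjusted p = 0.965). Both genes had their lowest before value in before replicate 1 and their highest after value in after replicate 2.

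**Figure D3:**
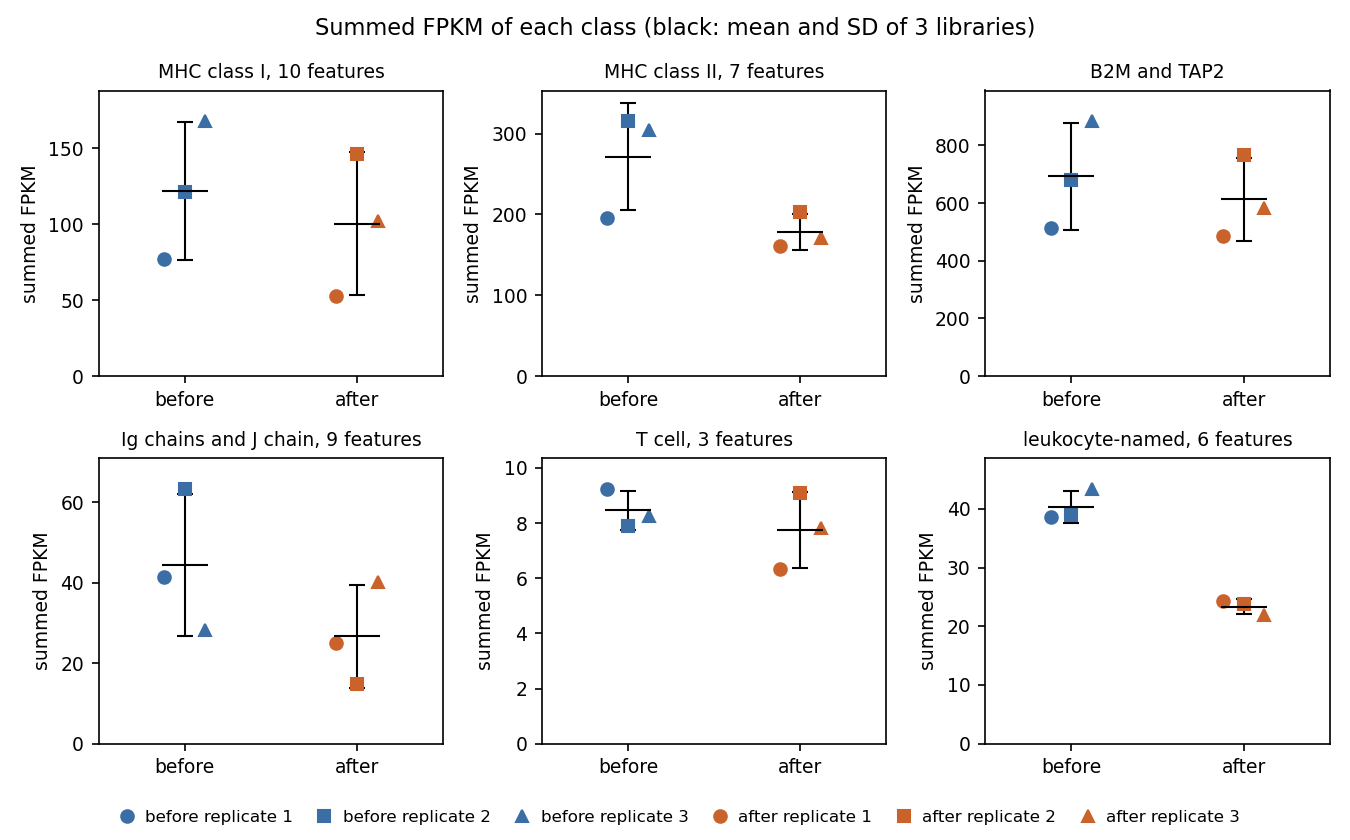
Each panel gives on its vertical axis the summed FPKM of 1 role class in every library, before (blue) and after (orange), with the mean and SD of 3 libraries in black. The leukocyte-named class separates, at 38.7 to 43.5 before and 21.9 to 24.3 after, while class I spans 52.6 to 146 after and 76.9 to 168 before.

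Immunoglobulin genes had low values and large differences between libraries of 1 stage. None of the 9 features passed, and 1 had an unadjusted p under 0.05. Their sum was 25.1, 14.7 and 40.2 FPKM after and 41.6, 63.5 and 28.3 FPKM before, with overlapping stages. The J chain, which joins secreted antibody units and marks plasma cells, was the most abundant. It measured 14.7, 6.69 and 10.2 FPKM after and 18.4, 15.5 and 21.8 FPKM before. These stages did not overlap, and the difference of -0.81 ± 0.30 missed the threshold (adjusted p = 0.147). A heavy chain variable feature (Cluster-8914.21366) was named after its values were seen, and its best match was in the fish Salmo salar. It measured 0.90, 0.31 and 15.4 FPKM after and 8.36, 32.1 and 0 FPKM before. High and low libraries occurred in both stages, and its SD within stages, 2.28 on the log2 scale, was the largest of the 68. An immunoglobulin light chain feature below the filter, also matched to Salmo salar, measured 30.2 FPKM in before replicate 2 and at most 1.15 FPKM elsewhere.

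MHC and immunoglobulin features mostly spread more between libraries of the same stage than features of similar level did, a description with no test. The SD within stages was above the median at that level for 7 of 10 class I, 7 of 7 class II and 8 of 9 immunoglobulin features. It was above the median for 8 of the 35 features outside the MHC and receptor classes. Beyond that, 3 class I and 2 immunoglobulin features were above the 95th percentile, and 0 of the 35 were. The class I ones included the toad-matched pair that differed in opposite directions in before replicate 3. The immunoglobulin ones had best matches in Salmo salar and Homo sapiens. Over all 68 features, 32 were above the median and 5 above the 95th percentile. Median SDs were 0.60 for class I, 0.45 for class II, 0.63 for immunoglobulin and 0.41 for all features tested. A wide spread makes a difference of a given size harder to call, and the labels do not say how many animals stand behind each library.

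**Figure D4:**
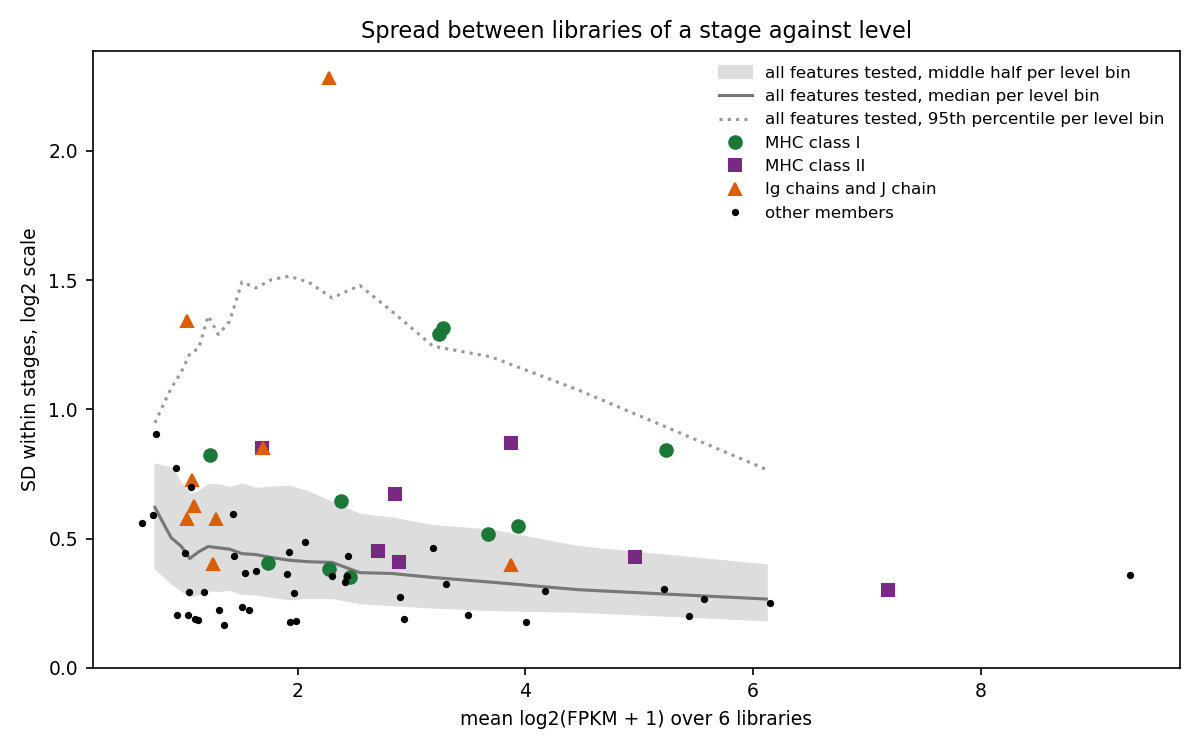
The horizontal axis is the mean log2(FPKM + 1) of a feature and the vertical axis its SD between libraries within stages, for class I (green), class II (purple), immunoglobulin (orange) and the remaining features (black) of the 68. The grey line and band give the median and interquartile range of all features tested by level bin and the dotted line their 95th percentile. Within their own level bins 5 of the 68 were above the 95th percentile, at up to 2.28. The dotted line runs from bin to bin, so a counted point can lie below it.

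T-cell and B-cell receptor proteins were low, and 0 of 5 passed or had an unadjusted p under 0.05. CD3 delta, a signalling chain of the T-cell receptor, measured 4.44, 7.06 and 6.95 FPKM after and 8.33, 6.41 and 6.09 FPKM before. The stages overlapped, with a difference of -0.16 ± 0.25 (adjusted p = 0.730, 95% interval -0.77 to 0.44). CD79A, the signalling chain of the B-cell receptor, measured 1.49, 1.56 and 2.61 FPKM after and 2.26, 2.23 and 1.88 FPKM before. Its stages overlapped too, with a difference of -0.13 ± 0.26 (adjusted p = 0.788, 95% interval -0.75 to 0.48). Of a list of 10 T-cell markers 1, the co-receptor CD4, passed the filter, and the list summed to 3.94 to 5.53 FPKM after and 2.53 to 4.91 FPKM before. CD8A, CD8B, CD2 and LCK were below the filter, and CD3E, CD3G, CD247, CD5 and ZAP70 had no feature matched by name.

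Leukocyte-named proteins were lower after in 5 of 6 cases and none passed. An unadjusted p under 0.05 was found for 3 of the 6, against 26.6% of all features tested. The stages did not overlap, with lower values after, for 3 of the 6, against 16.8% of all features tested. The sum of the 6, 24.3, 23.8 and 21.9 FPKM after against 38.7, 38.9 and 43.5 FPKM before, did not overlap. The most abundant was the leukocyte elastase inhibitor, a serpin that blocks neutrophil proteases. It measured 8.87, 6.38 and 7.15 FPKM after and 14.3, 16.4 and 12.3 FPKM before. All before values were higher, and the difference of -0.86 ± 0.22 came close to the threshold (adjusted p = 0.0595). The other 2 with non-overlapping stages, LENG8 (-0.80, adjusted p = 0.0731) and LENG9-like (-1.26, adjusted p = 0.0674), are named in mammals for lying beside a cluster of leukocyte receptor genes and were picked after their values were seen. CD53, a tetraspanin of leukocyte membranes likewise picked after its values were seen, measured 3.71, 3.77 and 4.67 FPKM after and 5.28, 6.18 and 2.98 FPKM before (-0.16, adjusted p = 0.762), with overlap.

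Markers shared by most leukocytes had lower sums after, as the class II and leukocyte-named features did. Of 12 such markers 7 were measured and 1 fell, and their sum was 38.5 to 51.4 FPKM after and 53.7 to 82.7 FPKM before. PTPRC, the leukocyte surface phosphatase CD45, had a difference of 0.01 (adjusted p = 0.988), at 0.78 to 1.24 FPKM over all 6 libraries. B-cell markers, J chain included, summed to 11.1 to 19.3 FPKM after and 24.4 to 26.6 FPKM before. The J chain made up most of that sum, at 6.69 to 14.7 FPKM after and 15.5 to 21.8 FPKM before. CD79A and CD22, the latter named after its values were seen, overlapped between stages, with differences of -0.13 and 0.15. Granulocyte markers, of which 2 of 8 were measured, summed to 3.67 to 13.8 FPKM after and 10.2 to 59.5 FPKM before, with overlap. Most of the before sum was the feature that stood for MMP9, named after its values were seen, at 8.32, 14.9 and 44.0 FPKM before. Its match is Xenopus laevis matrix metalloproteinase-9TH, and whether it marks granulocytes here was not tested. Macrophage markers, mostly lysozyme, summed to 2926 to 6062 FPKM after and 3746 to 8456 FPKM before. Erythroid markers summed to 17767 to 22459 FPKM after and 13043 to 17411 FPKM before, thrombocyte markers to 8.87 to 9.13 and 9.53 to 12.3 FPKM, and stellate and endothelial markers to 59.7 to 68.1 and 27.7 to 78.9 FPKM. The part of these cell type markers in the MHC and leukocyte-named values was not tested.

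None of the 5 features past the threshold is an MHC or antigen receptor chain. TCIRG1, a subunit of the proton pump that acidifies lysosomes, fell from 24.5, 23.7 and 30.2 FPKM before to 7.69, 8.22 and 9.89 FPKM after. The stages were far apart, with a difference of -1.50 ± 0.20 (adjusted p = 0.0120), and it passed in 5 of 6 fits with 1 library left out, missing without after replicate 2 (adjusted p = 0.0554). NFKBIA, which holds NF-kappaB in the cytoplasm, fell from 58.3, 58.2 and 69.5 FPKM before to 15.2, 27.0 and 22.9 FPKM after (-1.50 ± 0.24, adjusted p = 0.0189). NFATC3, a calcium-activated transcription factor, fell from 5.72, 4.59 and 6.67 FPKM before to 1.28, 1.24 and 1.59 FPKM after (-1.48 ± 0.24, adjusted p = 0.0187). Neither gene had overlapping stages. With 1 library left out, NFKBIA passed in 2 of 6 fits and NFATC3 in 3 of 6. The highest adjusted p was 0.0676 for NFKBIA, without after replicate 3, and 0.0716 for NFATC3, without after replicate 2.

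BCAP31, an endoplasmic reticulum protein that sorts newly made membrane proteins, rose from 10.5, 9.01 and 10.6 FPKM before to 20.5, 35.5 and 31.8 FPKM after. Every after library was higher, with a difference of 1.42 ± 0.25 (adjusted p = 0.0232). BCL7B, a subunit of SWI/SNF chromatin remodelling complexes, rose from 4.98, 3.84 and 7.61 FPKM before to 14.3, 12.7 and 16.7 FPKM after (1.30 ± 0.27, adjusted p = 0.0363). Its stages were likewise apart. Each passed in only 1 of 6 fits with 1 library left out, with the highest adjusted p, 0.0887 and 0.123, without after replicate 3. H13, the signal peptide peptidase known as minor histocompatibility antigen 13, measured 66.8, 51.9 and 70.8 FPKM after and 35.7, 27.5 and 41.7 FPKM before. It did not overlap either, and its difference of 0.84 ± 0.22 missed the threshold (adjusted p = 0.0642). A second, far lower H13 feature (Cluster-28755.0), named after its values were seen, overlapped, with a difference of -0.48 (adjusted p = 0.667).

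**Figure D5:**
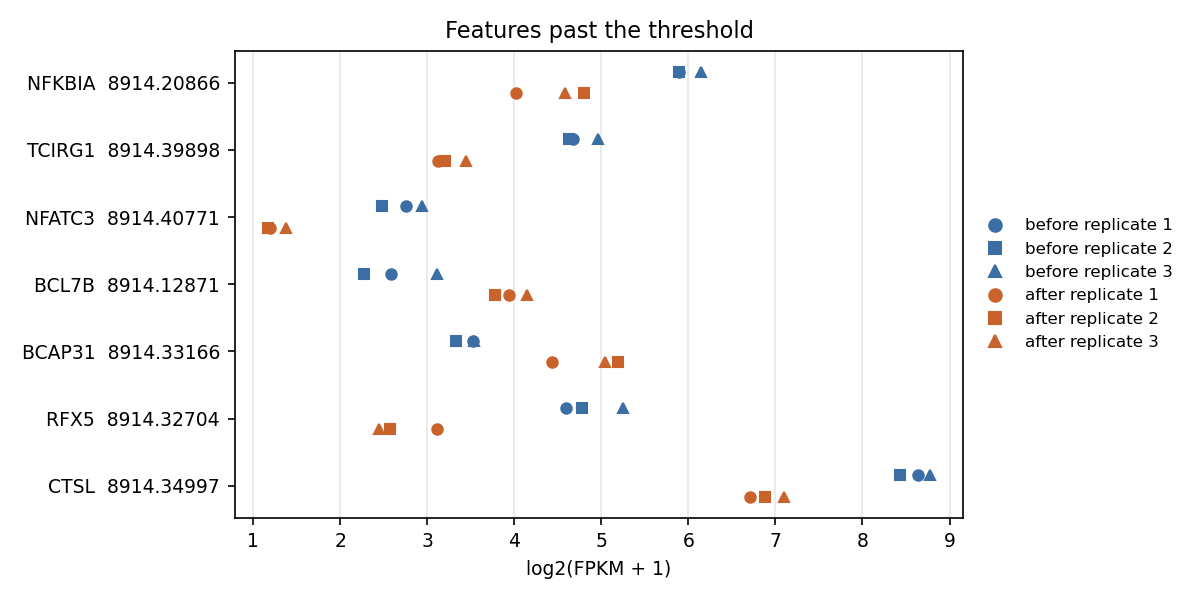
The horizontal axis gives log2(FPKM + 1) in the 3 before (blue) and 3 after (orange) libraries for the 5 features past the threshold and for the pathway genes RFX5 and CTSL. In each row the stages stand apart, for example TCIRG1 at 23.7 to 30.2 FPKM before and 7.69 to 9.89 after.

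Further members of the NF-kappaB pathway, which meet the rule through the words B-cells in their full names, did not pass, and those named here were picked after their values were seen. NFKB1, a subunit of the factor, was at 0.73, 0.46 and 1.0 FPKM after and 1.81, 1.52 and 2.0 FPKM before (-0.69, adjusted p = 0.140). The 4 IKBKG features and the 2 IKBKB features, kinase subunits that release NF-kappaB from its inhibitor, had differences from -0.72 to 0.41. The most abundant of the remaining names were IGBP1, which binds protein phosphatase catalytic subunits, and TCTA. IGBP1 measured 43.5, 54.1 and 44.9 FPKM after and 33.5, 35.6 and 45.7 FPKM before (0.31, adjusted p = 0.372). TCTA measured 51.9, 66.5 and 62.3 FPKM after and 68.3, 77.4 and 103 FPKM before (-0.44, adjusted p = 0.240). IGBP1 overlapped between stages through before replicate 3, and this TCTA feature did not overlap. A second, lower TCTA feature (Cluster-8914.41246), named after its values were seen, overlapped (-0.10, adjusted p = 0.861). Of the 7 immunoglobulin superfamily or binding proteins, 0 passed and the median difference was -0.04.

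Genes of the presentation pathways that the naming rule does not reach were read from fixed lists. In the list of class I peptide loading and proteasome genes 7 of 12 were measured, 0 passed, and the median difference was 0.36. CALR, CANX and PDIA3, chaperones that fold the class I heavy chain among many other proteins, had differences of 0.95 (adjusted p = 0.207), 0.61 (adjusted p = 0.155) and 0.38 (adjusted p = 0.186). The stages of CANX and PDIA3 did not overlap, while the lowest after value of CALR, 243 FPKM, was below the 293 FPKM of before replicate 3. ERAP1, which trims class I peptides, had a difference of 0.36 (adjusted p = 0.542). Tapasin (TAPBP) and NLRC5 were below the filter, and PSMB8 and PSMB10 had no feature matched by name.

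In the list of class II processing genes 7 of 11 were measured and 2 fell, where 4.0% of all features tested fell, with a median difference of -0.35. RFX5, a subunit of the complex that binds class II gene promoters in mammals, fell from 23.2, 26.4 and 37.0 FPKM before to 7.62, 4.92 and 4.46 FPKM after. The stages were well apart, the difference was -2.17 ± 0.28 (adjusted p = 0.0105), and it passed with any 1 library left out (adjusted p up to 0.0486). CTSL, the lysosomal protease cathepsin L, fell from 399, 343 and 439 FPKM before to 104, 117 and 135 FPKM after (-1.72 ± 0.17, adjusted p = 0.00553). CTSL was named after its values were seen and also passed in all 6 fits with 1 library left out. CTSS, the protease that cuts the invariant chain in mammalian antigen-presenting cells, had a difference of -0.02 (adjusted p = 0.960, 95% interval -0.56 to 0.51). IFI30, a reductase that opens disulfide bonds of antigens, had a difference of 0.00 (adjusted p = 0.996), and LGMN, an asparaginyl protease, one of -0.35 (adjusted p = 0.435). RFXANK had no feature matched by name.

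Regulators of interferon response and of antigen receptor signalling had no call. Of 9 interferon regulators 6 were measured, with a median difference of -0.36, among them IRF8, a factor of myeloid and B cells, at -0.48 (adjusted p = 0.232). Of 16 antigen receptor signalling genes 6 were measured, with a median of -0.25, among them the kinase SYK at 0.63 (adjusted p = 0.306), while LCK and BTK were below the filter. Of 16 lymphocyte transcription and recombination genes 3 were measured and 0 passed, and the recombinases RAG1 and RAG2 had no feature matched by name. Of the leukocyte cytoskeletal proteins CORO1A and LCP1, CORO1A was likewise unmatched. The 2 features matched to LCP1 were left out for the species of their match.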

How the data were processed

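Poly-A RNA of tadpole liver was sequenced (Illumina HiSeq, paired ends), per the labels' protocols. The authors deposited 1 matrix of FPKM values, with a protein description per transcript cluster, per the file header. Assembler, aligner and FPKM program: not given in the sources used here. FPKM are not counts and transcript lengths were not used, so the fragments behind a value are unknown and no counting interval is given.

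Features below 1 FPKM in more than 3 of the 6 libraries were left out. Differences were tested two-sided on log2(FPKM + 1) in R 4.3.3 by limma 3.58.1, using empirical Bayes moderation and a mean-variance trend, and adjusted by Benjamini-Hochberg over all 40548 features. On this scale the change of low genes is understated. The script was tested on simulated data. SDs are over 3 libraries. Spread was compared with that of features of similar mean level. Clusters with the same name can share reads.

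The members, role classes, gene lists and markers were chosen with earlier results of these data known. Named genes were every member past the threshold, the most abundant member of each class, the 10 most abundant members and a fixed list of pathway genes. Genes outside that rule are marked as picked after their values were seen. Symbols were matched by protein name, leaving out descriptions from placental mammals and non-vertebrates, and the most abundant feature stood for a gene. No set test was run. Alternatives were the pseudocount, the filter, 3 scalings, 2 variance models, a replicate block and leaving out each library. No reference genome was used. Results for some listed genes are not reported here.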

Additional observations from a re-analysis of the deposited data

How the results depend on the processing

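Over 1048 values of single members under the alternatives, 1012 kept their side of the threshold, 27 lost a call and 9 gained one. With a call in either fit, 0 reversed direction. Direction was not compared for members without a call in both fits. Of all features 3502 passed, 1882 higher and 1620 lower. Without the filter 1067 passed (634 and 433), and among the members 0 rose and 1 fell. With median-of-ratios or quantile scaling 5 members fell in place of 3, LENG8 and LENG9-like joining, and H13 also passed with median-of-ratios scaling (adjusted p = 0.0344). With a filter of 5 FPKM the members' median was -0.44, over fewer and more abundant members, and the leukocyte elastase inhibitor (adjusted p = 0.0301), LENG8 (0.0432) and H13 (0.0401) passed. Leaving out 1 library each gave 691 to 1867 features past the threshold, 392 to 1184 higher and 299 to 917 lower, with 0 to 1 members higher, 1 to 3 lower and a median from -0.27 to 0.019 (without before replicate 3). Among the MHC and receptor features 1 passed under any alternative, the class II beta chain without before replicate 1, its only before library above 0.

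Same-numbered libraries of the stages did not deviate together over all features tested (r from -0.088 to -0.005). This check would miss a pairing that touches few features, and the labels do not say whether the numbers pair the libraries. With the replicate number as a block 339 features passed (194 higher, 145 lower) and 0 members in either direction, and RFX5 reached an adjusted p of 0.0640.

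Depth in fragments is unknown, so values near 1 FPKM are the least precise. Groups of 3 libraries allow no outlier test. MHC and immunoglobulin reads can be split over clusters, and single cluster values should be read with the sums of their class.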

Other observations

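Of the 256 features with a matching name, 188 were below the filter. Of these 4 were at 0 in every library, 108 never reached 1 FPKM, and 80 reached it in 1 or 2 libraries, at up to 30.2 FPKM. The low group held receptors that define lymphocytes: features named T-cell receptor alpha and gamma reached 0.76 and 0.78 FPKM, and the B-cell receptor beta chain (CD79B) reached 0.65 FPKM.

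Of 7 features below the filter with a best match in dog or chicken, 6 were above 0 in before replicates 2 and 3 and at 0 in the other 4 libraries. The remaining 1, a class I antigen matched to Gallus gallus, was at 0.61 and 0.95 FPKM in after replicates 1 and 2, at 0.31 FPKM in before replicate 2 and at 0 in the other 3. A class I antigen matched to Canis lupus familiaris was at 2.18 and 1.29 FPKM in before replicates 2 and 3 and at 0 in the other 4 libraries. A beta-2-microglobulin feature matched to the same species was at 0.83 and 1.17 FPKM in these libraries and at 0 elsewhere. A class II beta feature matched to Gallus gallus was at 3.00 and 6.42 FPKM, and another class I antigen matched to it at 1.61 and 2.45 FPKM, again only there. Over all 77 dog-matched features the sum was 308 and 439 FPKM in before replicates 2 and 3 and 112 to 142 FPKM in the other 4. Over 111 chicken-matched features the sum was 923 to 1191 FPKM, with no such split. No dog-matched or chicken-matched feature is among the 68 tested. Of the 68, 1 immunoglobulin heavy chain feature (Cluster-8914.10733) had a human best match and LINGO1 a rabbit one, both named after their values were seen. Cluster-8914.10733 measured 4.82 FPKM in after replicate 3, 4.32 and 1.28 FPKM in before replicates 1 and 3, and 0 elsewhere. Beta-2-microglobulin had its best match in the fish Oryzias latipes. Where the RNA matched to other species came from was not tested.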
